A study of Drosophila melanogaster with 34 samples.

Results

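The step from 5 to 10 min of rest after light was examined in nuclear RNA of the mushroom body (MB), the memory center of the fly brain. The members were taken by their labels: 3 nuclear RNA-seq libraries of flies rested for 10 min against 3 of flies rested for 5 min. These are 6 of the 15 nuclear RNA-seq libraries and of the 34 samples of the series. The study asked how neural activity changes transcription in MB neurons, and the other RNA libraries come from naïve flies, from flies frozen right after light and from flies rested for 15 min, with 3 libraries in each group. Of 17559 genes in the count table, 15634 had at least 1 count and 11670 passed the filter on low counts and were tested.

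Both groups had the same genotype and the same light, and differed in the labels only in the minutes of rest. The line is given as CS10, and the methods name w(CS10) as the wild-type control line to which the fly lines had been outcrossed. CsChrimson, a cation channel opened by red light, and FLAG-KASH, a tag that sits in the nuclear envelope, were driven by *MBp-LexA*. This driver holds a piece of *Mef2* that acts as an enhancer in MB neurons, so the tagged nuclei are those in which that piece is active, in MB neurons or elsewhere. Flies had eaten all-trans-retinal, the cofactor of the channel, were illuminated with pulsed red light for 5 min, rested for 5 or 10 min and were frozen. Heads of pooled flies were homogenized and fixed, and nuclei were pulled down with an antibody against FLAG. The age and the sex of the flies are not given in the sources used here. The labels number the replicates but do not say that they came from separate batches of flies. The p-values below therefore rest on the spread between libraries within groups, which may be technical. In the main fit this spread was estimated from all 15 nuclear RNA-seq libraries. The RNA was fragmented by heat and selected with oligo-dT, so the reads lie mostly in the 3′ region of each gene.

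Neurons that fire switch on genes in waves. Immediate early genes such as *Fos* and *Egr* come first, and genes for enzymes, transporters and chaperones follow. Chaperones are proteins that help others to fold. The heat-inducible *Hsp70* genes answer within minutes to heat and other stress through the heat shock factor, whereas the TRiC/CCT chaperonin, a ring-shaped folding machine for actin and tubulin, is made in every growing cell. A level measured in nuclei sums new transcripts and transcripts not yet exported or degraded, and in bulk nuclei a change in the number of cells of a type cannot be told apart from a change in RNA per cell.

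From 5 to 10 min of rest, more genes were called higher than lower. With edgeR's quasi-likelihood test and a Benjamini-Hochberg adjusted p under 0.05, 221 of 11670 genes were called, which is 1.89% of those tested. Of these, 197 were higher at 10 min (1.69%) and 24 were lower (0.206%). These shares are the base for the counts of called genes in the lists below. All of those lists were chosen with earlier results of these data known, so their counts are descriptions. At an unadjusted p under 0.05 the directions were closer, with 868 genes higher and 680 lower. In all 221, the 3 libraries of one group lay on one side of the 3 of the other. That pattern alone was common: 12.2% of all tested genes had all 10 min libraries above all 5 min libraries, and 10.9% had them below. Most changes were small. The median log2 fold change was 0.50 among the genes called higher and -0.55 among those called lower, against -0.02 over all tested genes. A log2 fold change of at least 1 was reached by 13 of the genes called higher, and one of at most -1 by 2 of those called lower. The number called depended on single libraries. It was 82 without replicate 2 of 10 min, 96 without replicate 2 of 5 min, 106 without replicate 1 of 10 min, 135 without replicate 1 of 5 min, 139 without replicate 3 of 10 min and 176 without replicate 3 of 5 min. Of the 221 genes, 67 were called in all 6 of these fits, 63 of them higher and 4 lower, and no called gene changed sign.

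Total counts ran from 15068766 to 18515185 in the 6 libraries, and from 10392334 to 18809246 in all 15. edgeR's common coefficient of variation between replicates, beyond counting noise, was 13.4% over all tested genes and all 15 libraries. Replicate 1 of 5 min stood somewhat apart from its group: the chi-square per degree of freedom over gene counts was 16.4 and 18.6 in its pairs and 5.68 between the other 2 libraries, against 4.94 to 6.89 at 10 min. No pair was alike enough to be 1 library deposited again. The 13 MB markers fixed for the check, among them *ey* and *Dop1R2*, were all detected, with summed levels of 3608 to 3905 CPM (counts scaled to a common library size) at 5 min and 3787 to 4087 at 10 min. Neither the main edgeR fit nor DESeq2 called any of the 13 (0 called, with 2 at an unadjusted p under 0.05). Their median log2 fold change was 0.11, with 10 above 0 and 3 below, and *ey* was called in 3 of 16 alternative fits. Genes of photoreceptors were also abundant, with 28153 to 28695 CPM for 14 markers at 5 min and 28389 to 29272 at 10 min. RNA of cells other than MB neurons was thus in the libraries, and which cells a change came from was not tested.

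**Figure D1:**
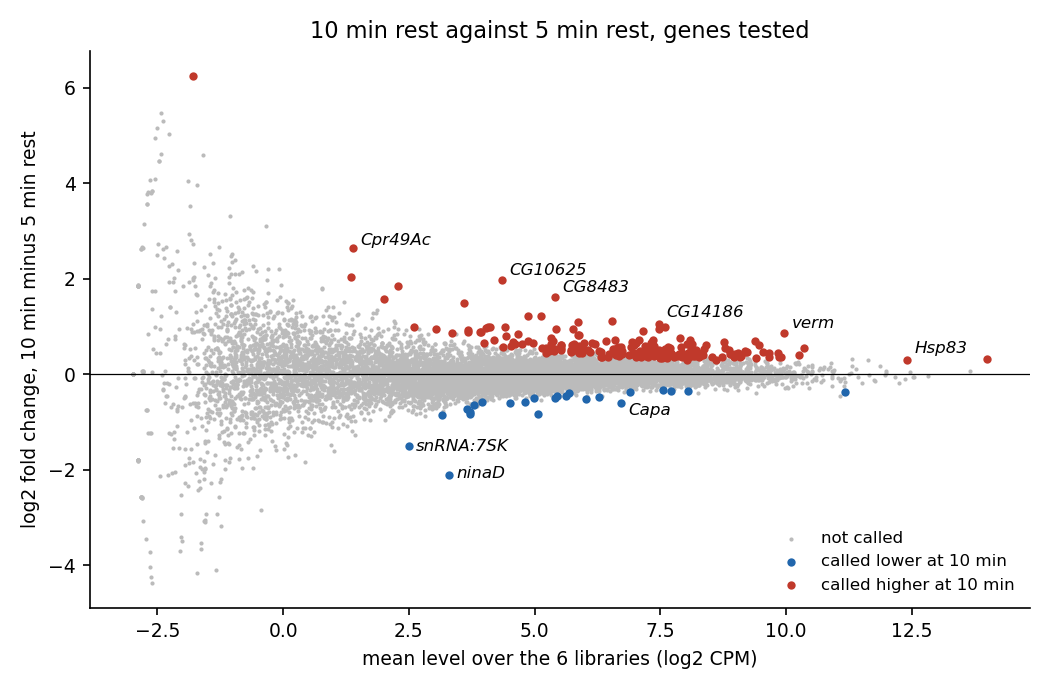
Log2 fold change at 10 min against 5 min of rest for the 11670 tested genes (vertical axis) against their mean log2 CPM over the 6 libraries (horizontal axis). Red points are the 197 genes called higher, blue points the 24 called lower and grey points the rest. The called genes lie mostly at middle to high levels, and the red point at the far left is *nerfin-1*, which had no count in any 5 min library.

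The changes with the smallest p were in *CG14186*, *bmm* and *CG5290*. *CG14186*, one of the genes known to answer to neural activity in flies, had 114, 124 and 133 CPM at 5 min and 261, 263 and 242 at 10 min. All 10 min libraries stood well above all 5 min libraries (log2 fold change 1.05, SE 0.09, adjusted p = 3.74e-08). The gene lies at chr3L:20098084-20103827 of dm6, and its mean rose further to 367 CPM at 15 min. *bmm* (brummer) encodes the lipase that breaks down stored triglyceride in fat droplets, and lies at chr3L:14776496-14786412. It had 126, 130.1 and 129.7 CPM at 5 min and 249, 244 and 249 at 10 min, with almost no spread inside either group (log2 fold change 0.94, SE 0.08, adjusted p = 3.74e-08). *CG5290* stood at 64.4, 60.3 and 65.2 CPM and then at 137, 141 and 136 (log2 fold change 1.12, SE 0.10, adjusted p = 3.74e-08). In naïve flies its mean was 10.9 CPM, so most of its level at 10 min was gained after the start of the light. It lies at chr3L:17909483-17912565, where it overlaps *CG14353*.

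The next by p were *Mrp4*, *CG8483*, *CG10625*, *tra* and *CG10516*. *Mrp4*, an ABC transporter of the multidrug resistance family, had 138, 129.7 and 147 CPM and then 258, 285 and 277 (log2 fold change 0.98, SE 0.10, adjusted p = 1.48e-07). *tra*, the splicing factor of sex determination, went from 113, 101 and 101 to 182, 198 and 207 CPM (log2 fold change 0.90, SE 0.10, adjusted p = 1.46e-06). *CG10516* went from 40.6, 40.02 and 37.00 to 73.1, 77.4 and 77.3 CPM (log2 fold change 0.95, SE 0.11, adjusted p = 1.37e-06). In none of these genes did the groups overlap, and all 8 genes with the smallest p kept their call whichever library was left out.

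*CG8483* and *CG10625* (now named *frm*) had the largest increases among the genes called in all 6 of those fits, and their levels came and went. *CG8483*, at chr3R:13208754-13214465, had 20.97, 25.3 and 25.9 CPM at 5 min and 72.4, 78.4 and 71.1 at 10 min (log2 fold change 1.62, SE 0.17, adjusted p = 1.07e-06). *CG10625*, at chr3L:5538411-5551159, had 7.86, 11.4 and 11.7 CPM and then 40.1, 46.3 and 36.1 (log2 fold change 1.98, SE 0.21, adjusted p = 1.1e-06). At 15 min their means were 5.15 and 4.07 CPM, below those of naïve flies (22.4 and 9.29 CPM). The step from 10 to 15 min, which shares the 10 min libraries with the comparison reported here, had log2 fold changes of -3.86 and -3.32 (adjusted p = 1.17e-14 and 1.31e-11, edgeR). *CG17298* (5 min mean 39.5 CPM, 10 min mean 84.96 CPM) and *CG2444* (19.2 and 44.7 CPM) went the same way, with log2 fold changes of -3.20 and -1.86 from 10 to 15 min.

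The other large increases were in genes of lower level, and several rest on few libraries. *CG6511* (log2 fold change 1.23) and *CG43965* (1.48) were called in all 6 fits with a library left out, but they overlap on opposite strands and may share reads. *CG11700* (1.59) was called in 4 of the 6 fits with a library left out, with a largest adjusted p of 0.0639 without replicate 2 of 10 min. *CG34217* (1.86) was called in 5, with 0.051 without replicate 2 of 10 min. *CG16719* (2.04) was called in 2, with 0.145 without replicate 2 of 5 min, and it overlaps *CG6767* (*Prps*), which was called too (0.60). *Cpr49Ac*, a cuticle protein gene, had 2.71, 0.399 and 0.382 CPM at 5 min and 8.02, 7.59 and 6.54 at 10 min (log2 fold change 2.65). Its first 5 min library was much closer to the 10 min libraries than the others were, and the call was kept in only 1 of the 6 fits (largest adjusted p = 0.211 without replicate 2 of 5 min, edgeR). *nerfin-1*, a zinc finger gene of neurons, had 0 counts in every 5 min library and 4, 10 and 14 counts at 10 min. Against a floor of 3 counts in each 5 min library it was at least 3.36-fold higher, and its call was kept in 0 of the 6 fits.

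Most subunits of the CCT chaperonin rose. This list was made after the values had been seen, so its count is a description. Of the 8 subunit genes, 7 were called higher, against 1.69% of all tested genes, and the median log2 fold change of the 8 was 0.53. *T-cp1*, the alpha subunit, had 51.8, 47.6 and 51.8 CPM at 5 min and 72.7, 87.4 and 76.6 at 10 min (log2 fold change 0.65, SE 0.11, adjusted p = 0.00101). *CG7033*, the beta subunit, had 115, 120.3 and 124 and then 183, 171 and 187 CPM (log2 fold change 0.59, SE 0.09, adjusted p = 0.000218). The groups did not overlap in either gene, and both were called in all 6 fits with a library left out. *Tcp-1eta* had 46.1, 44.5 and 42.1 and then 70.6, 67.03 and 68.4 CPM (log2 fold change 0.64, SE 0.13, adjusted p = 0.00773). It missed the threshold without replicate 1 of 10 min (adjusted p = 0.0525, edgeR), and it overlaps the called gene *CG9839* on the other strand. *Cctgamma* (0.57), *Cct5* (0.48), *Tcp-1zeta* (0.45) and *CG5525* (0.39) were called in 4, 5, 1 and 1 of those fits, with largest adjusted p of 0.0639 (without replicate 2 of 10 min), 0.0554 (without replicate 3 of 10 min), 0.14 (without replicate 1 of 5 min) and 0.142 (without replicate 1 of 10 min). Without any one 10 min library, 4 of the 8 were called. *CG8258*, the theta subunit, had a log2 fold change of 0.30 (adjusted p = 0.0979) and was not called. DESeq2 called all 8. The summed level of the 8 genes was 629 to 640 CPM at 5 min and 888 to 898 at 10 min, against 395 to 444 in naïve flies. Of the 8, 5 had already been called higher from light to 5 min of rest, a step that shares the 5 min libraries and in which 3.14% of all genes were called, and from 10 to 15 min 0 were called (edgeR), with a median log2 fold change of 0.01.

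None of the *Hsp70* and *Hsp68* genes was called from 5 to 10 min (edgeR and DESeq2, 0 of 7, with 0 at an unadjusted p under 0.05). Their climb lay before 5 min of rest. *Hsp68*, an inducible chaperone of the Hsp70 family, had 1820.1, 1751 and 1761 CPM at 5 min and 1999, 1992 and 1942 at 10 min, with a log2 fold change of 0.15 (SE 0.09, adjusted p = 0.512). All 10 min libraries lay above all 5 min libraries by a small margin. The naïve libraries held 59.3 to 72.8 CPM. The median log2 fold change of the 7 was -0.07, and their summed level was 3853 to 4144 CPM at 5 min and 3971 to 4064 at 10 min, against 123 to 169 in naïve flies. The *Hsp70* copies are nearly identical, and reads of low mapping quality had been removed, so reads that fit several copies may be missing. The separate values of the copies, and the summed level, are therefore uncertain. All 7 had been called higher from light to 5 min of rest, with a median of 2.14. *alphagamma-element:CR32865*, a noncoding RNA made from repeats at the *Hsp70* cluster, was called higher. It had 212, 165 and 170.3 CPM and then 319.9, 321 and 282 (log2 fold change 0.75, SE 0.11, adjusted p = 9.44e-05), against a mean of 5.13 CPM in naïve flies. Reads on such repeats may be split between copies or may have been removed. Of 879 tested genes whose names begin with CR, 11 were called higher and 0 lower, against 1.69% and 0.206% of all tested genes.

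Promoters are shown for 5 of these genes because the letters searched there differed between the *Hsp70* and *Hsp68* genes and the CCT genes. Each is the 250 bases before the annotated gene start in dm6, from RefSeq's Release 6 sequence, read 5′ to 3′ on the gene's strand. They are chr3R:24057311-24057560 on the minus strand for *Hsp68*, chr3R:22491440-22491689 on the minus strand for *T-cp1*, chrX:9089263-9089512 on the plus strand for *CG7033*, chr3R:8801314-8801563 on the plus strand for *Tcp-1eta* and chr3L:14036769-14037018 on the plus strand for *Hsc70Cb*, the Hsp110 described below. Capitals mark heat shock elements in *Hsp68*, here 3 alternating units GAA or TTC with 2 bases between units. In the others they mark the letters ATCGAT, the core of TATCGATA, the element bound by the factor DREF. A marked stretch need not lie in the full element.
Hsp68: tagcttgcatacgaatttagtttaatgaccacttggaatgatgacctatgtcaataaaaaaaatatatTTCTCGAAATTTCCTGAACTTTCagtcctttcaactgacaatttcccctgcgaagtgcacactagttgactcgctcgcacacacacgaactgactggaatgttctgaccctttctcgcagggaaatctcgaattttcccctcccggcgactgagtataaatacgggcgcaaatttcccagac
T-cp1: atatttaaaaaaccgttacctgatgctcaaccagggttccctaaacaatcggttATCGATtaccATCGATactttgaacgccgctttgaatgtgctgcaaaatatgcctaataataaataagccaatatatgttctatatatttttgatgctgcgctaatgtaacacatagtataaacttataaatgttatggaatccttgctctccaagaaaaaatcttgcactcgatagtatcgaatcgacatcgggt
CG7033: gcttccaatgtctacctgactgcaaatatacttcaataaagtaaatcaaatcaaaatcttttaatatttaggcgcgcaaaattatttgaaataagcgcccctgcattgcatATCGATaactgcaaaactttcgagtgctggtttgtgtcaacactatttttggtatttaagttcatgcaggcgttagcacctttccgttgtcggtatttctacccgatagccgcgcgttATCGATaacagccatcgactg
Tcp-1eta: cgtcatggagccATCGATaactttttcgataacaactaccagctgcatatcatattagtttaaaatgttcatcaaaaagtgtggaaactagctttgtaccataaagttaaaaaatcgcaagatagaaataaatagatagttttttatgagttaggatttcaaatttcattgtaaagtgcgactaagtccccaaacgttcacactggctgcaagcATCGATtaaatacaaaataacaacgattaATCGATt
Hsc70Cb: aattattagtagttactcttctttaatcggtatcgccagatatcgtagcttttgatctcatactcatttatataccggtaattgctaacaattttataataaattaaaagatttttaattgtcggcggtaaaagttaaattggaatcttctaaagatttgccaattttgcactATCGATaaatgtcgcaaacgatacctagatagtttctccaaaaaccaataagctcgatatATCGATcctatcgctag

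A heat shock element of this strict form was in 7 of the 7 *Hsp70* and *Hsp68* promoters, in 44 of the 11459 tested genes that could be placed (0.384%), and in 0 of 195 placed genes called higher. Among 195 genes, 0 is close to that share. The strict form was also in 0 of 1 called and 0 of 9 not called small heat shock protein genes. Among the other chaperones it was in 0 of 6 called and 0 of 12 not called. Only 1 annotated start per gene and the 250 bases before it were searched, so elements elsewhere would be missed. In these windows its absence thus does not set the CCT genes apart from these. With up to 1 other letter in the units it was in 6.98% of all placed genes and 5.64% of those called higher. The letters ATCGAT, which read the same on both strands, were in the promoters of all 7 CCT genes that could be placed, in 3 of 6 called and 7 of 12 not called genes of the other chaperones, and in 0 of the 7 *Hsp70* and *Hsp68* promoters. They stood in 24.1% of the promoters of genes called higher and 22.1% of all, and were looked for after the promoters had been read. The full element TATCGATA stood in 10.3% of the promoters of genes called higher and 8.88% of all. Of the promoters shown with ATCGAT, those of *CG7033* and *Hsc70Cb* hold it, and those of *T-cp1* and *Tcp-1eta* do not. TGACTCA, the AP-1 site, read on both strands, was in 3.08% of the promoters of genes called higher and 2.20% of all, and TGACGTCA, the cAMP response element, in 0 of 195 and in 0.454%. A match is a string of letters and not a measured binding site.

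Among the other chaperones, co-chaperones and *Hsf*, 6 of 18 tested genes were called higher, against 1.69% of all tested genes, and 0 lower. Their median log2 fold change was 0.16. *CG1416*, the fly relative of AHSA1, which drives the ATPase of Hsp90, had 126, 127 and 126 CPM at 5 min and 203, 207 and 217 at 10 min (log2 fold change 0.73, SE 0.08, adjusted p = 2.75e-06). *Hsc70Cb*, an Hsp110 that reloads Hsp70 with nucleotide, had 339, 354 and 337 and then 539, 555 and 555 CPM (log2 fold change 0.68, SE 0.08, adjusted p = 4.67e-06). *Hop*, which joins Hsp70 to Hsp90, had 160.3, 168 and 156 and then 232, 236 and 231 CPM (log2 fold change 0.53, SE 0.09, adjusted p = 0.00119). The groups were well apart in all 3 genes, and each was called in all 6 fits with a library left out. The abundant constitutive chaperones moved less. *Hsp83*, the fly Hsp90 (0.30, adjusted p = 0.02, edgeR), *Hsc70-3*, the Hsp70 of the endoplasmic reticulum (0.36, 0.024) and *Hsc70-5*, that of mitochondria (0.30, 0.0409), were called in 1, 2 and 0 of the 6 fits, with largest adjusted p of 0.123 (without replicate 2 of 5 min), 0.179 (without replicate 2 of 10 min) and 0.179 (without replicate 2 of 10 min). *CHORD*, a partner of Hsp90 named after its value was seen, rose by 0.51 on the log2 scale (adjusted p = 0.0183, edgeR), and was called in 2 of the 6 fits, with a largest adjusted p of 0.139 without replicate 1 of 10 min. Among 10 small heat shock protein genes, *CG14207* was the only one called, with 173, 166 and 174 CPM and then 249, 253 and 249 (log2 fold change 0.55, SE 0.09, adjusted p = 0.000209), while *Hsp26*, with a mean of 105 CPM in naïve flies, had 3513, 2970.0 and 2893 and then 2674, 2765 and 2771 CPM (log2 fold change -0.19, adjusted p = 0.34). In the unfolded protein response list, *PEK*, the kinase that slows translation under stress of the endoplasmic reticulum, rose by 0.63 (adjusted p = 0.00119, edgeR; called in all 6 fits), and *Hsc70-3* was the only other of 12 genes called.

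**Figure D2:**
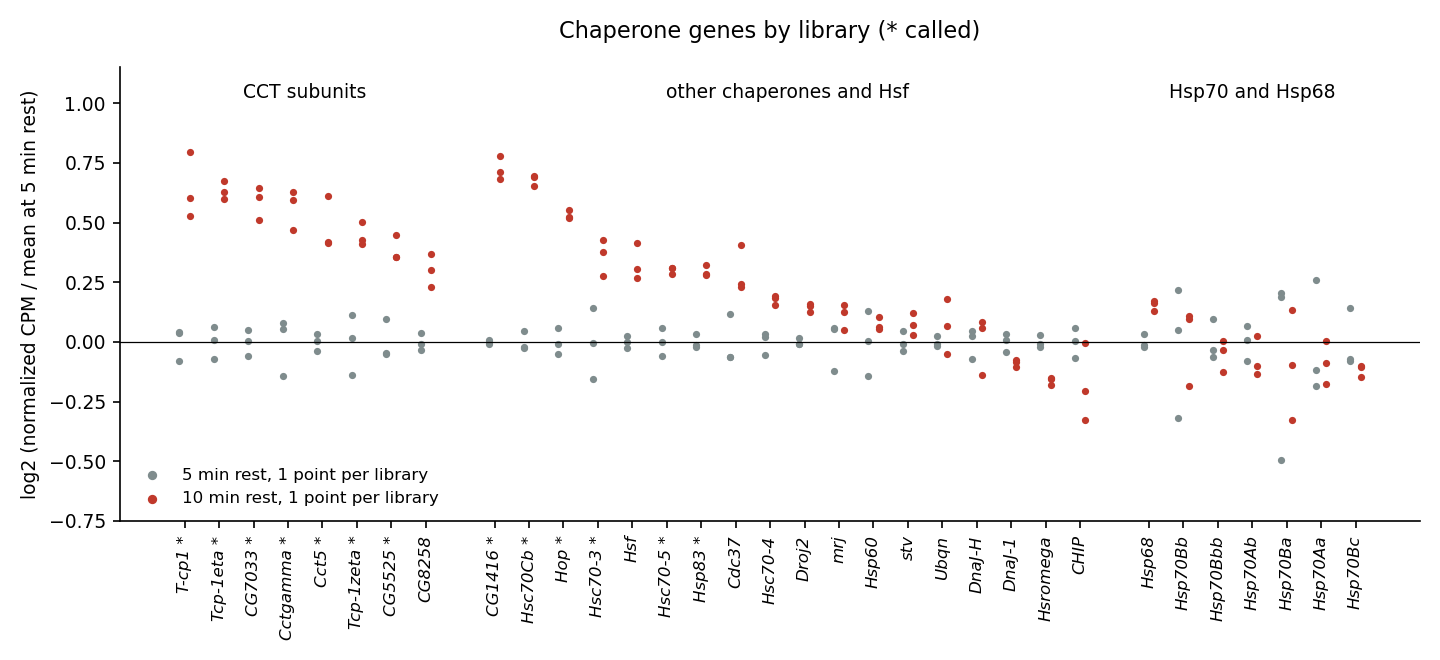
Log2 of the normalized CPM of each library over the mean at 5 min of rest (vertical axis) for the CCT subunits, the other chaperones with *Hsf*, and the *Hsp70* and *Hsp68* genes (horizontal axis). Grey points are 5 min libraries, red points 10 min libraries, and an asterisk marks a called gene. The red points stand above the grey ones for the CCT genes, *CG1416*, *Hsc70Cb* and *Hop*, and overlap them in most of the *Hsp70* genes.

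Of 17 activity-regulated genes, with a median log2 fold change of 0.23, 0 were called lower and 3 higher, against 1.69% of all tested genes called higher. Beside *CG14186* these were *cbt* (cabut, a zinc finger transcription factor) and *h* (hairy, a transcriptional repressor). *cbt* had 196, 208 and 203 CPM at 5 min and 254, 284 and 283 at 10 min (log2 fold change 0.43, SE 0.09, adjusted p = 0.0053). *h* had 188, 173 and 183 and then 248, 239 and 251 CPM (log2 fold change 0.44, SE 0.09, adjusted p = 0.00704). Neither gene's groups overlapped, and each lost its call in 1 of the 6 fits, *cbt* without replicate 2 of 10 min (adjusted p = 0.0551, edgeR) and *h* without replicate 2 of 5 min (0.0704). Over the whole list, 13 of the 17 genes had a log2 fold change above 0 and 4 below. An unadjusted p under 0.05 was reached by 10 of the 17 (edgeR). Their summed level, the 3 called genes included, was 1587 to 1705 CPM at 5 min and 1937 to 2061 at 10 min, without overlap. The study follows *h*, *kay*, *sr*, *Myo31DF* and *grh*. Of these, only *h* was called at this step by edgeR, and the immediate early genes *kay* and *sr* were not. *kay*, the fly *Fos*, had 103, 117 and 123 and then 148, 151 and 135 CPM (log2 fold change 0.34, SE 0.11, adjusted p = 0.144). *sr*, the fly *Egr*, had 12.8, 12.5 and 13.2 and then 19.4, 18.02 and 16.4 CPM (0.48, SE 0.15, adjusted p = 0.108). Other fits did call them: *kay* was called in 3 of 16 alternatives, which were the 6 libraries alone, with and without the replicate block, and no filter, and *sr* in 1, DESeq2. Both lay above the 5 min libraries in every 10 min library, as 12.2% of all genes did. *Myo31DF* (0.24, adjusted p = 0.281), a myosin, and *grh* (0.01, 0.988), a transcription factor of epithelia and neuroblasts, were not called either. Nor were the genes of the studied regulators, *CoRest* (0.13, 0.626), *Rpd3* (-0.27, 0.468) and *nej*, which encodes CBP (0.04, 0.938).

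Other regulators rose by small amounts. *Xrp1*, a bZIP factor of stress responses, rose by 0.60 (adjusted p = 9.6e-05, edgeR), and *mbf1*, a coactivator of bZIP factors, by 0.71 (1.46e-05). *sra*, which binds calcineurin, rose by 0.48 (0.00785) and *NFAT*, whose mammalian relatives calcineurin activates, by 0.48 (0.00946). *ImpL2*, a secreted protein that binds insulin-like peptides, rose by 0.54 (0.000315). *Xrp1*, *mbf1* and *ImpL2* were called in all 6 fits with a library left out, *sra* in 3 and *NFAT* in 3, with largest adjusted p of 0.0605 (without replicate 2 of 10 min) and 0.0821 (without replicate 2 of 10 min). Single members were called higher in further lists: *msn* of the JNK pathway (0.38), *Clk* of the circadian clock (0.36), *ttk* among the corepressors (0.37) and the serotonin receptor *5-HT2A* (0.38). They were called in 1, 0, 0 and 1 of the 6 fits, with largest adjusted p of 0.169 (without replicate 1 of 5 min), 0.21 (without replicate 2 of 10 min), 0.171 (without replicate 1 of 5 min) and 0.113 (without replicate 2 of 10 min). *Xrp1*, *mbf1* and *NFAT* were named after their values had been seen.

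Several genes that make, bind or trim chitin, the sugar polymer of cuticle and tracheae, rose at 10 min and fell afterwards. The list was made after the values had been seen. Of its 24 tested genes, 7 were called higher, against 1.69% of all tested genes, and 0 lower, with a median log2 fold change of 0.26. *verm*, a chitin deacetylase, had 690.3, 718 and 804 CPM at 5 min and 1329, 1418 and 1273 at 10 min (log2 fold change 0.86, SE 0.13, adjusted p = 8.83e-05). *serp*, its neighbour and close relative, had 362, 343 and 396 and then 552, 554 and 513 CPM (log2 fold change 0.56, SE 0.10, adjusted p = 0.000953). *mtg*, a secreted chitin-binding protein of the synaptic matrix, had 28.7, 30.2 and 34.1 and then 64.6, 63.9 and 51.3 CPM (log2 fold change 0.95, SE 0.13, adjusted p = 3.73e-05). All 10 min libraries lay above all 5 min libraries in these genes, and the calls of *verm*, *serp*, *mtg* and *obst-A* (0.65) were kept in all 6 fits with a library left out. *mtg* overlaps the called gene *CR18228* on the other strand. The chitin-binding gene *Gasp* (0.43), the chitin synthase *kkv* (0.49) and the deacetylase *Cda5* (0.37) were called in 4, 1 and 0 of those fits, with largest adjusted p of 0.0641 (without replicate 2 of 10 min), 0.208 (without replicate 2 of 5 min) and 0.297 (without replicate 2 of 10 min). At 15 min *verm* had a mean of 279 CPM, below the 328 CPM of naïve flies. From 10 to 15 min, in libraries shared with this comparison, 17 of the 24 genes were called lower, with log2 fold changes of -2.26 for *verm*, -2.36 for *serp*, -3.68 for *kkv* and -0.65 for *mtg*. In that step 16.9% of all 11670 tested genes were called, 1195 of them lower and 783 higher. Among 56 cuticle protein genes, *Cpr49Ac* and *Cpr100A* (0.48, adjusted p = 0.0386, edgeR) were called higher and 0 lower, and *Cpr100A* was called in 0 of the 6 fits (largest adjusted p = 0.231 without replicate 2 of 10 min). These 2 of 56 stood against 1.69% of all tested genes called higher. Homogenates were passed through mesh to remove cuticle, and the part that remaining cuticle-forming cells may have in these values was not tested.

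Genes of fat storage and fuel use moved in both directions. This list too was made after the values had been seen, and *bmm* led to it. Of 19 tested genes, 7 were called higher and 2 lower, against 1.69% and 0.206% of all tested genes. *Pdk*, the kinase that turns off pyruvate dehydrogenase, had 487, 479 and 516 CPM at 5 min and 686, 697 and 651 at 10 min (log2 fold change 0.46, SE 0.08, adjusted p = 0.000953). *Lsd-2*, a perilipin that coats fat droplets, had 638, 753 and 711 and then 939.8, 966 and 943 CPM (log2 fold change 0.44, SE 0.09, adjusted p = 0.00519). Both were called in all 6 fits with a library left out, and their groups did not overlap. *whd*, which carries fatty acids into mitochondria (0.45), *Lip4*, a lipase (0.49), *Lsd-1*, the other perilipin (0.39), and *CG9186*, an enzyme of fat droplets (0.43), were called in 5, 4, 2 and 1 of the 6 fits, with largest adjusted p of 0.0515 (without replicate 2 of 10 min), 0.142 (without replicate 1 of 10 min), 0.209 (without replicate 3 of 10 min) and 0.119 (without replicate 2 of 5 min). On the other side, *sug* (sugarbabe), a transcription factor that answers to dietary sugar, had 76.97, 82.7 and 75.3 CPM and then 51.3, 57.8 and 54.7 (log2 fold change -0.52, SE 0.10, adjusted p = 0.00225). *AkhR*, the receptor of the fat-mobilizing adipokinetic hormone, had 44.1, 56.5 and 51.02 and then 36.3, 31.9 and 39.4 CPM (log2 fold change -0.49, SE 0.12, adjusted p = 0.0204). *sug* was called in all 6 fits and *AkhR* in 2, with a largest adjusted p of 0.192 without replicate 2 of 5 min. The summed fat body markers were 16344 to 16707 CPM at 5 min and 15582 to 16142 at 10 min, so the groups did not overlap, and their part in the changes of these genes was not tested. They held 1 called gene of 7 tested, *Rfabg* (*apolpp*, the lipoprotein of the blood), at -0.37 (adjusted p = 0.0121, edgeR; called in 3 of the 6 fits, largest adjusted p 0.113 without replicate 2 of 5 min). Close relatives among the glutathione S-transferase genes may share reads, or such reads may have been removed. Of 33 of these genes, *GstE8* (0.81) and *GstE7* (0.49) were called higher and 0 lower, in 4 and 1 of the 6 fits, with largest adjusted p of 0.0907 (without replicate 2 of 10 min) and 0.168 (without replicate 1 of 10 min). These 2 of 33 stood against 1.69% of all tested genes called higher.

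**Figure D3:**
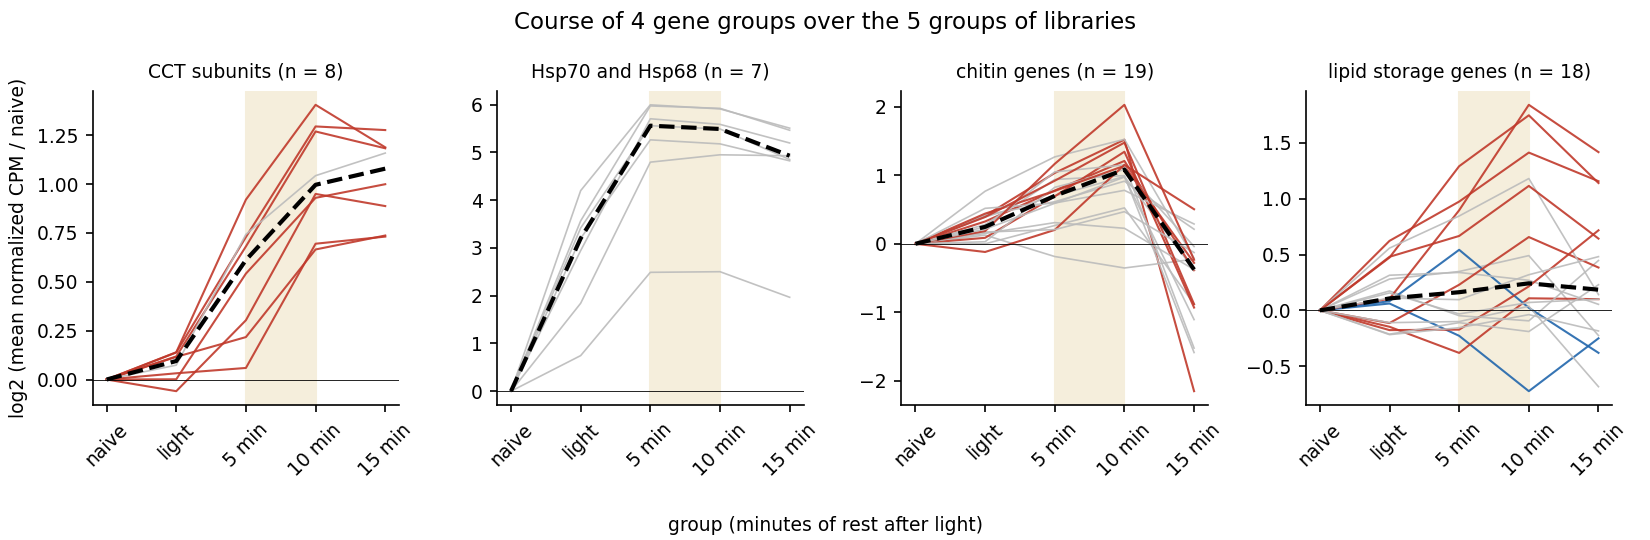
Log2 of the mean normalized CPM of each group over that of naïve flies (vertical axis) in naïve flies, after light and after 5, 10 and 15 min of rest (horizontal axis), for genes of 4 lists with a mean of at least 1 log2 CPM. Red lines are genes called higher from 5 to 10 min, blue lines genes called lower, grey lines the rest, dashed lines the median of the list, and the shaded band is the step from 5 to 10 min. The CCT genes climb through the band and hold, the median of the *Hsp70* and *Hsp68* genes is nearly flat in it, and the chitin genes peak at 10 min.

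Over the whole course, the genes called higher mostly peaked at 10 min. Relative to naïve flies, the median over the 197 genes was 0.00 on the log2 scale right after light, 0.28 at 5 min, 0.79 at 10 min and 0.41 at 15 min. The value at 10 min is partly set by the choice of genes. At 15 min, 64 of the 197 were below their 5 min mean, 97 were between their 5 and 10 min means and 36 were above the 10 min mean. From 10 to 15 min, 100 of the 197 were called lower and 5 higher, where 16.9% of all 11670 genes were called, 1195 of them lower and 783 higher. The medians of the 24 genes called lower were 0.06 after light, 0.06 at 5 min, -0.54 at 10 min and -0.20 at 15 min, and 13 of them were called higher and 2 lower from 10 to 15 min. The 10 min libraries enter both steps, so these counts are not independent of the choice of genes.

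*ninaD* had the largest decrease among the called genes. This gene encodes a scavenger receptor that takes up carotenoids, the source of the chromophore of fly opsins, and lies at chr2L:18081628-18083608. Its libraries held 18.6, 21.2 and 21.1 CPM at 5 min and 3.76, 5.80 and 4.55 at 10 min, with a wide gap between the groups (log2 fold change -2.12, SE 0.24, adjusted p = 2.75e-06). The mean was 0.756 CPM in naïve flies, 8.47 right after light and 3.23 at 15 min, so the 5 min level was the top of a short rise. Its relative *santa-maria*, a receptor of the same family in neurons and glia, went the other way, with 275, 270.2 and 263 and then 348, 369 and 372 CPM (log2 fold change 0.43, SE 0.08, adjusted p = 0.00244), and was looked up after its value had been seen. *Capa*, which encodes neuropeptides of a few brain and nerve cord neurons, had 136, 125 and 126 CPM and then 88.03, 82.01 and 84.9 (log2 fold change -0.60, SE 0.09, adjusted p = 0.000157). *CG32581* (now *sordd2*) had 48.6, 43.3 and 43.2 and then 20.7, 26.2 and 28.8 CPM (log2 fold change -0.84, SE 0.12, adjusted p = 9.6e-05). With *sug*, *ninaD*, *Capa* and *CG32581* were the 4 lower genes called in all 6 fits with a library left out.

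The other decreases were less stable. *snRNA:7SK*, the RNA that holds the elongation factor P-TEFb inactive, had 11.5, 8.20 and 8.28 CPM at 5 min and 3.36, 3.11 and 3.36 at 10 min (log2 fold change -1.51, SE 0.35, adjusted p = 0.0178). It has no poly(A) tail as a rule and its count in oligo-dT libraries is low, and the call was kept in 2 of the 6 fits (largest adjusted p = 0.106 without replicate 2 of 10 min, edgeR). *Pdf*, the neuropeptide of clock neurons, had 37.8, 28.9 and 36.05 and then 17.7, 25.1 and 26.1 CPM (log2 fold change -0.58, SE 0.15, adjusted p = 0.0463). *srp*, a GATA factor of hemocytes and fat body, had 26.2, 32.3 and 25.8 and then 18.1, 19.7 and 17.9 CPM (log2 fold change -0.60, SE 0.14, adjusted p = 0.0168). *Pdf* was called in 1 and *srp* in 2 of the 6 fits, with largest adjusted p of 0.323 without replicate 1 of 10 min and 0.172 without replicate 2 of 5 min. The other genes of the 12 largest decreases were *erm* (-0.85), *CG1979* (-0.84), *CG8401* (-0.79), *CG18273* (-0.74), *rnh1* (-0.64) and *mRpL44* (-0.59), called in 0, 2, 3, 2, 1 and 0 of the 6 fits, with largest adjusted p of 0.214 (without replicate 3 of 5 min), 0.226 (without replicate 2 of 10 min), 0.0706 (without replicate 2 of 10 min), 0.0842 (without replicate 3 of 5 min), 0.336 (without replicate 2 of 10 min) and 0.135 (without replicate 2 of 5 min). The blue-sensitive opsin *Rh5* was the 1 called gene of 14 photoreceptor markers (-0.36, called in 2 of the 6 fits, largest adjusted p = 0.121 without replicate 1 of 10 min, edgeR). Its decrease stood beside a list sum that overlapped between the groups.

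**Figure D4:**
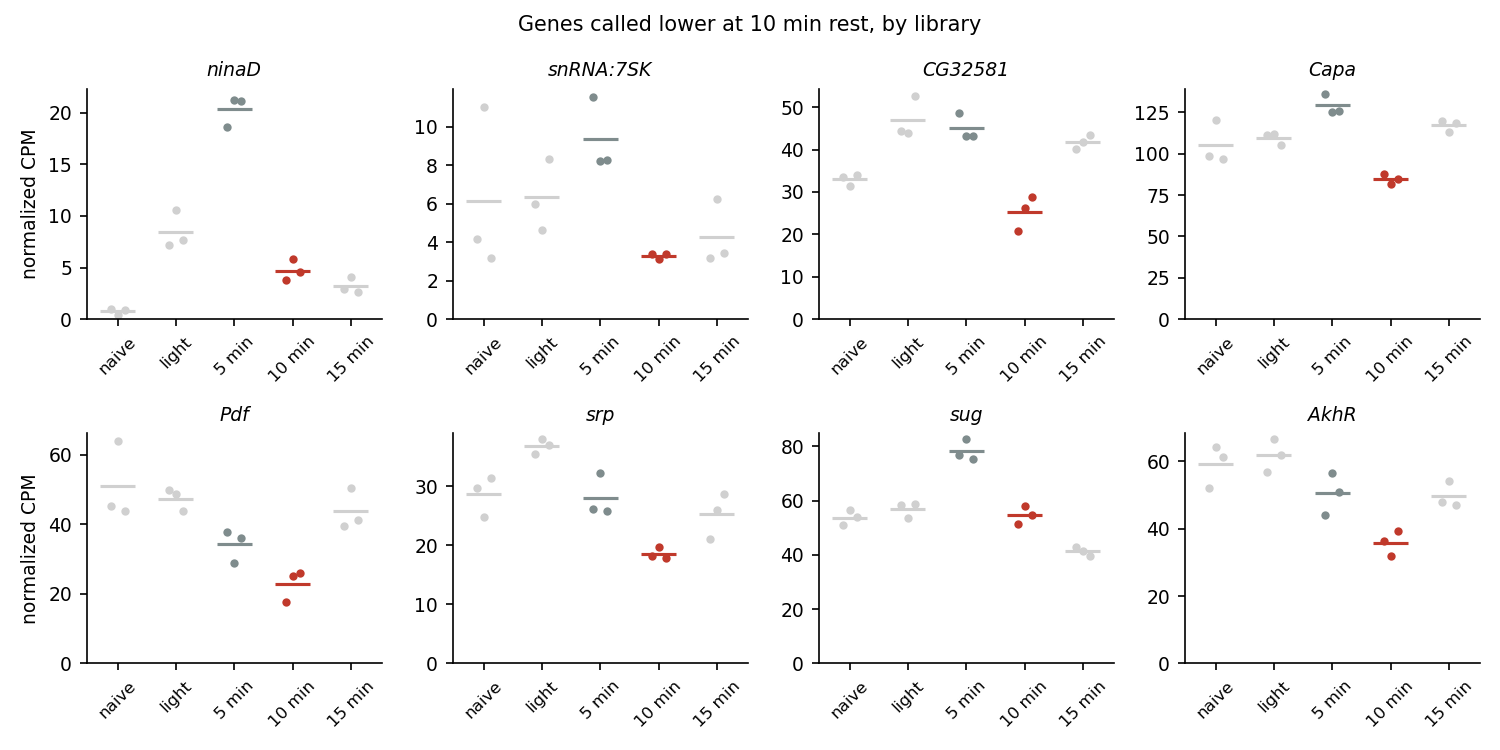
Normalized CPM (vertical axes, from 0) in every library of the 5 groups (horizontal axes) for 8 genes called lower at 10 min. Points are libraries and lines are group means, with 5 min in dark grey, 10 min in red and the other groups in light grey. *ninaD* climbs from naïve flies to 5 min of rest and drops at 10 min, while *Capa* and *CG32581* dip at 10 min and stand higher again at 15 min.

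In large gene families of basic cell functions, most log2 fold changes were below 0 and almost none was called. Of 72 mitochondrial ribosomal protein genes, 67 had a log2 fold change below 0, with a median of -0.23 and 1 call, *mRpL44*. Of 77 oxidative phosphorylation genes, 73 were below 0, with a median of -0.18 and 0 calls with edgeR, 17 of the 77 having an unadjusted p under 0.05. Of 86 cytosolic ribosomal protein genes, 84 were below 0, with a median of -0.12 and 0 calls, 1 of them having an unadjusted p under 0.05. Their summed level overlapped between the groups, with 36254 to 46624 CPM at 5 min and 36184 to 38379 at 10 min. The sums did not overlap for the mitochondrial ribosomal list (1249 to 1489 and 1110 to 1217) or for oxidative phosphorylation (13534 to 15638 and 12521 to 13187). The median over all tested genes was -0.02, and the members of a list are not independent of each other. Genes of synapses and channels moved little: 26 genes of synaptic vesicles and active zones had a median of -0.09, 21 voltage-gated channel genes -0.08, and 19 genes of cAMP and CREB memory signalling -0.04, each with 0 calls in edgeR and 3, 4 and 4 genes at an unadjusted p under 0.05. Glial markers (8 genes, median 0.03) and muscle markers (11 genes, median 0.18) had 0 calls each, with 2 genes at an unadjusted p under 0.05 in each. The summed muscle markers were 1308 to 1318 CPM at 5 min and 1448 to 1616 at 10 min, so the groups did not overlap there, and the part of these cells in other changes was not tested.

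In the lists with no call (edgeR, 0 called), the member with the smallest p in each is given here with its log2 fold change and adjusted p, none past the threshold. Among receptors and channels these were *nAChRbeta3* (0.94, 0.119), *Nmdar2* (-0.26, 0.229) and *Ork1* (-0.47, 0.0937). Among genes of neurons, synapses and glia they were *ey* (0.31, 0.147), *shi* (-0.20, 0.265), *dpr20* (-0.28, 0.207), *CrebA* (0.41, 0.0979) and *Eaat1* (0.32, 0.0986). Among genes of transcription, growth signals and stress they were *Su(Tpl)* (0.32, 0.0845), *trx* (0.17, 0.501), *rho* (0.44, 0.152), *Keap1* (0.32, 0.232) and *roX1* (0.16, 0.468). Among genes of basic functions they were *Rpt2* of the proteasome (-0.22, 0.36), *RpL24-like* (-0.30, 0.34) and *CG12859* of oxidative phosphorylation (-0.40, 0.0996). Among genes of other tissues they were *Mlc2* of muscle (0.33, 0.148), *Obp19d*, an odorant-binding protein (-0.45, 0.0506), *CecC*, an antimicrobial peptide (3.11, 0.109), *Acp36DE*, a seminal fluid protein (-2.08, 0.21), and *v(2)k05816* of the hydrocarbon list (-0.52, 0.646). The number of genes in these lists at an unadjusted p under 0.05 ran from 0 in the *Hsp70* and Polycomb lists to 17 of 77 in oxidative phosphorylation. DESeq2 called 2 genes of the voltage-gated channel list and 1 each of the glia, cAMP and CREB, elongation and odorant-binding lists, and 0 in the others of these lists. Of 16 alternative fits, *Obp19d* was called in 6, *Eaat1* and *Su(Tpl)* in 4 each, and *ey*, *nAChRbeta3*, *Ork1*, *CrebA* and *Mlc2* in 3 each. *CG12859* and *rho* were called in 2 of 16 each, *CecC* in 2 of 15 and *RpL24-like* in 1 of 16. The other genes named in this paragraph were called in none.

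**Figure D5:**
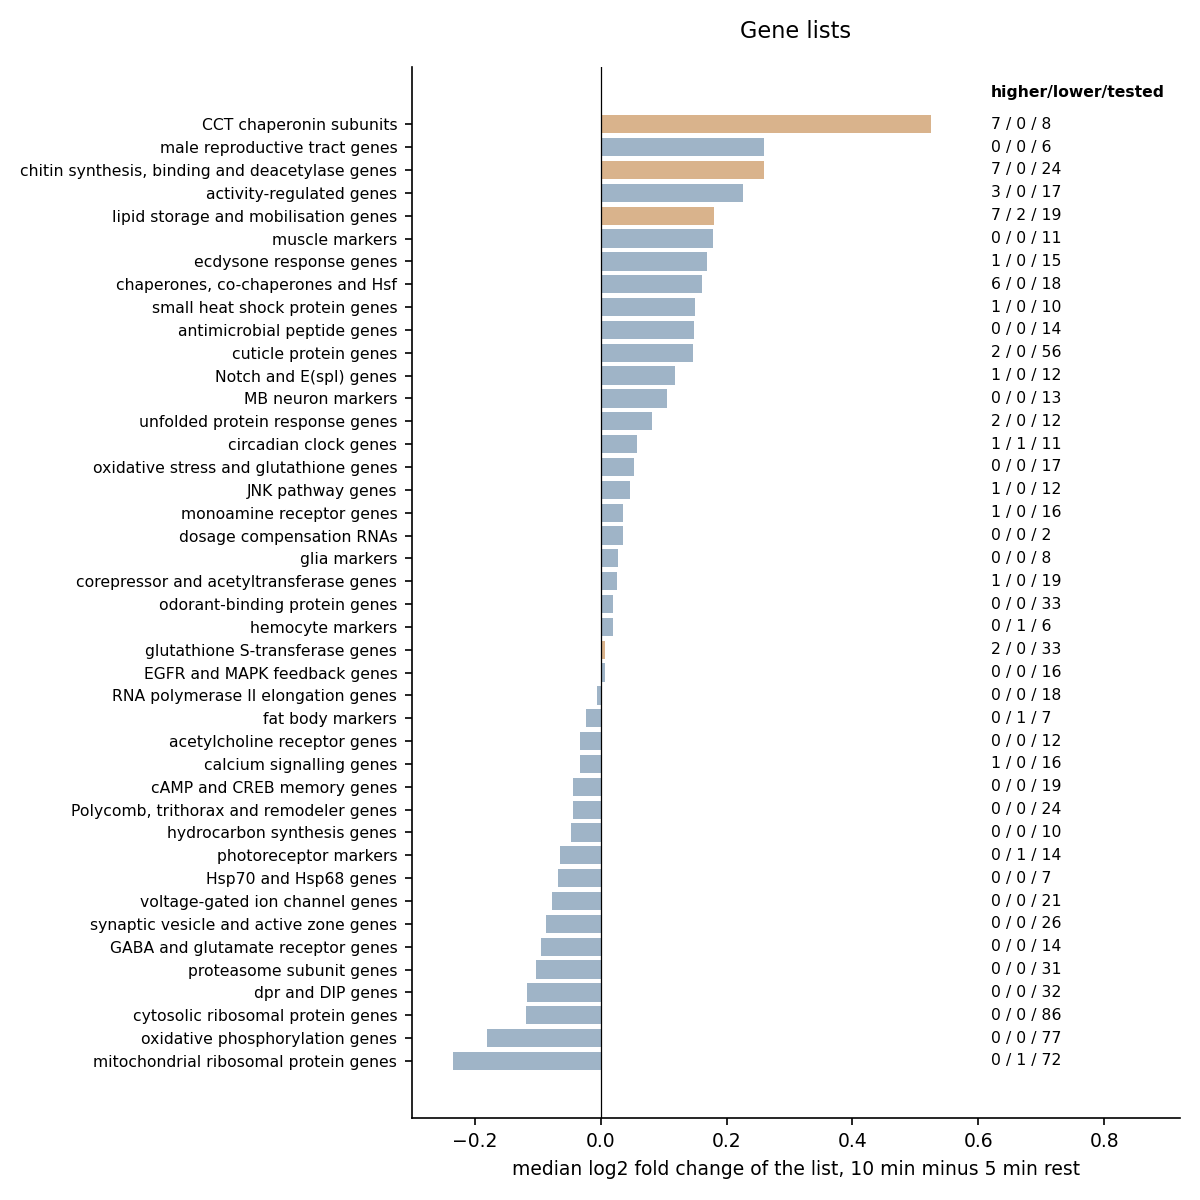
Median log2 fold change at 10 min against 5 min of rest over the tested genes of each of 42 lists (horizontal axis), with the numbers of genes called higher, called lower and tested at the right. Tan bars are lists made after values had been seen and blue bars the others, which were also chosen with earlier results of these data known. The CCT subunits have the highest median at 0.53, and the mitochondrial ribosomal protein genes the lowest at -0.23.

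The genes called higher were longer and more highly expressed than most. Their median gene length was 5264 bp, against 2452 bp over all tested genes and 3256 bp among those called lower. Their median longest transcript was 2428 bp, against 1833 bp and 1754 bp. Their median level was 7.07 log2 CPM, against 4.52 over all tested genes. A higher level makes a change of a given size easier to call, and the part of level in the difference of length was not tested. Of the 195 that could be placed, 28.2% lay on chromosome 3L, 23.6% on 3R, 17.9% on X, 15.4% on 2R, 14.9% on 2L and 0 on 4, against 19.7%, 24.7%, 16.4%, 20.6%, 17.8% and 0.881% of all 11459 placed genes. Binding sites of CBP in MB nuclei, from the authors' list of peaks in illuminated flies, lay in the gene or 1000 bases upstream in 73.3% of the genes called higher, in 34.8% of those called lower and in 43.3% of all tested genes. For Rpd3 the shares were 48.2%, 21.7% and 34.2%, and for CoRest-C 29.7%, 17.4% and 13.2%. The CoRest-C sites are those of a myc-tagged protein expressed from a transgene in the MB and pulled down by its tag. CBP and Rpd3 were pulled down with antibodies against the proteins themselves. With only the sites above the median of the deposited fold enrichment, the shares of genes called higher and of all tested genes were 49.2% and 24.4% for CBP, 25.6% and 18.5% for Rpd3, and 14.4% and 7.02% for CoRest-C. Of the 23 placed genes called lower, 5 held such a site of CBP, 3 of Rpd3 and 3 of CoRest-C, and 28 of the 195 called higher held one of CoRest-C, which are similar shares. Sites of all 3 proteins were at 20.5%, 17.4% and 8.71%. No adjustment for length or level was made. Of the 7 CCT genes called higher, 4 held a CBP site, 6 an Rpd3 site and 1 a CoRest-C site. Of the 7 chitin genes called higher, 5 held a CBP site and 0 a site of either other protein. Of the 7 lipid genes called higher, 5 held a CBP site, 4 an Rpd3 site and 5 a CoRest-C site. The strand setting of the counting is not given in the sources used here. Of 218 placed called genes, 82 overlap a tested gene on the other strand, and in 16 of them the other gene is called too. In these 8 pairs, reads from the shared stretch may not be told apart. That stretch differs between pairs: *mtg* and *CR18228* meet only at their edges, while *CG43965* lies wholly inside *CG6511*.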

How the data were processed

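MB nuclei were pulled down from heads of pooled flies, and nuclear RNA of 15 samples was sequenced as paired-end reads. According to the methods, the authors mapped reads with STAR to dm6, removed those with mapping quality below 8, and deposited counts of reads per gene from HTSeq, not normalized. Per the labels, the 6 libraries were grouped by minutes of rest. The authors also deposited a DESeq2 table of their own comparison (p-values and log2 fold changes), which was not used, and lists of binding sites with the fold enrichment and the −log10 p from MACS, of which the positions were used here and, for an alternative limited to the stronger sites, the fold enrichment.

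Scaling of the counts was by TMM, and genes were filtered by edgeR's default for groups (edgeR 4.0.16, with limma 3.58.1 in R 4.3.3). All 15 libraries were fitted together with 5 group terms and no covariate, and the quasi-likelihood F test was applied. A gene was called where its adjusted p, after Benjamini and Hochberg, was under 0.05, and every adjusted p of a gene in the text is from this test unless another is named. The standard error is the absolute log2 fold change divided by the square root of F. CPM are counts after TMM scaling to a common library size. Total counts of 10392334 to 18809246 per library set the precision. The test was tried on simulated counts. DESeq2 1.42.0, other scalings, filters, thresholds and sample sets, the replicate number as a block, and each library left out were the alternatives.

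The text names 12 genes at each end of the log2 fold changes of called genes (mean of at least 1 log2 CPM, groups not overlapping), the 8 with the smallest p, the genes the study follows and, in each list, up to 6 called members by p or else the member with the smallest p. Genes and lists that the text calls named or made after values were seen fall outside this rule. The libraries were taken by their labels, while the comparison and all gene lists were chosen with earlier results of these data known. Gene positions are those of the Release 6 assembly, which has the coordinates of dm6. Of 17559 gene IDs, 17253 were in the table of names. Overlaps, motifs and figures were made in Python 3.11 (matplotlib 3.10.9, pandas 2.3.3, numpy 2.4.6, scipy 1.17.1).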

Additional observations from a re-analysis of the deposited data

How the results depend on the processing

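The count of 221 called genes (197 higher and 24 lower) depended on the test and the libraries fitted. DESeq2 called 384 (332 higher, 52 lower), a fit of only the 6 libraries called 620 (477 higher, 143 lower), and without the filter 54 genes were lower. At an adjusted p under 0.01 the count was 103 (98 and 5), and under 0.1 it was 337, with 67 lower. With a fold of at least 1.5 it was 82 (71 and 11). Each library left out gave 82 to 176 called, 77 to 159 higher and 5 to 17 lower. Library size alone, upper quartile scaling, RLE scaling and 2 other filters stayed within 1.5 times the main count, from 192 to 240, and the share of calls that were higher was 76.9% with the 6 libraries and 82.8% with library size alone, against 89.1%. No called gene changed sign under any of these. Same-numbered libraries of the 2 groups did not deviate together (correlations of -0.02 to -0.03), so the numbers were not taken as pairs. With the replicate block, 206 genes were called in 15 libraries and 441 (358 higher, 83 lower) in the 6. Depth limits the low genes: *nerfin-1*, at 4 to 14 counts, is one example.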

Other observations

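Some called genes fall outside every list and outside the rule for named genes, and were picked here after their values had been seen. *Prat2* (0.42 on the log2 scale) and *CG6767* (*Prps*, 0.60), which encode enzymes at the start of purine synthesis, were both higher at 10 min, with adjusted p of 0.00723 and 0.000218 (edgeR). *Prat2* was called in 5 of the 6 fits with a library left out, with a largest adjusted p of 0.0637 without replicate 3 of 10 min. *gl* (glass) and *lz* (lozenge), transcription factors of the developing eye, were higher by 0.53 and 0.57 (0.0053 and 0.0181), while 0 of 14 photoreceptor markers were called higher. *gl* was called in 5 and *lz* in 2 of the 6 fits, with largest adjusted p of 0.0549 (without replicate 2 of 5 min) and 0.14 (without replicate 1 of 5 min). *chic*, the fly profilin, which binds actin, had 383, 393 and 390.5 CPM at 5 min and 572, 555 and 530.5 at 10 min (log2 fold change 0.51, SE 0.08, adjusted p = 0.000331), and the lamin gene *LamC* was higher by 0.67 (0.000209). Both were called in all 6 fits. *Ir21a*, a receptor for cooling, had 12.9, 14.5 and 9.30 and then 21.3, 26.9 and 25.2 CPM (adjusted p = 0.0182), was called in 2 of the 6 fits with a largest adjusted p of 0.119 without replicate 2 of 10 min, and overlaps the called gene *CR43609* on the other strand. No explanation of these changes was tested.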
